A study of Rattus norvegicus with 12 samples.

Results

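Interferon-stimulated genes were followed in the flat bone of the rat skull vault 6 h after surgery. The set was a list of 41 symbols from textbook knowledge of the interferon response, chosen with earlier results of these data known. A gene counted as measured when a probe with its symbol was well above background on any 4 or more of the 12 arrays, and for each gene the probe with the highest mean signal was used. On this rule 40 of the 41 genes were measured, among 22937 genes in all. The gene that did not pass was Ifit1, whose product binds viral RNA that lacks the host's cap: its single probe was well above background on 1 laser, 1 bur and 1 control array, and its 12 values are given with those of its relatives.

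The samples were RNA of calvarial bone from rats 10 weeks old, hybridised to one-colour arrays, with 4 laser, 4 bur and 4 control samples. Laser samples came from bone in which an Er:YAG laser, whose infrared light water absorbs, had cut a rectangle of 8 by 3 mm in 3 strokes at an output of 127 mJ per pulse and 20 Hz. Bur samples came from bone with a defect of that size made by a rotary instrument. Controls had lost the periosteum, the membrane that covers the bone, and their bone was left uncut, so every group had undergone surgery and no group was unoperated bone. The rats' strain and sex are not given in the sources used here. Whether samples of one group stem from different animals is not stated, and p-values then measure only the spread between these samples, which may be technical.

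Cells that sense foreign nucleic acid secrete type I interferons, which bind receptors coupled to the kinases Jak1 and Tyk2. Type I interferons lead to a complex that contains Stat2 and Irf9 and binds the interferon-stimulated response element (ISRE) of target genes, whereas interferon-gamma acts through the gamma-activated site (GAS). The target genes encode antiviral proteins, nucleic acid sensors, ubiquitin-like modifiers and GTPases, and also the factors that keep the response going. In bone, interferons are known as brakes on osteoclast formation.

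All arrays were read on a common scale, log2 signal minus the 75th percentile of the array, so that 0 is the level of that percentile and the value of one gene cannot be set against that of another. Between 67.8% and 73.7% of spots were well above background and 0 were saturated. The 4 control arrays lay on 1 slide, scanned apart from the others, and the 8 treated arrays on 2 further slides with 2 laser and 2 bur arrays each. Spike-in control spots were 3.21 log2 units brighter on the treated arrays (8.13 to 8.83) than on the control arrays (4.92 to 5.34). Slide and surgery therefore cannot be told apart in any comparison with control, whereas laser and bur arrays were balanced over the 2 treated slides. The tissue label was borne out by the bone genes Bglap, Col1a1, Mepe and Dmp1, each measured on every array.

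The ISRE carries a repeated core, and its letters were looked for near the start of the listed genes. RefSeq promoter windows of the GRCr8 assembly, 250 bases before to 50 bases after the start of the gene, were found by symbol for 32 of the 41 genes. The letters GAAANNGAAA, on either strand, were present in the windows of 21 of these 32 genes (65.6%) and in 3.92% of all 33469 windows of the table. The letters TTCNNNGAA of the GAS, which read alike on both strands, were present in 10 of the 32 (31.2%) and in 8.87% of all windows, and 7 genes held both. A match is a description of the letters in the window and not a binding site. Of the 15 genes whose level passed the test in the same direction in both comparisons with control, 13 had a window and 9 of those held ISRE letters. Of the same 15, Ifi47, Parp9, Cmpk2 and Trim25 had a window without ISRE letters, and Oas2 and Zbp1 had no window. The stretches of the 9, picked by their letters, are printed with the ISRE letters in capitals and up to 20 bases on either side. The first 7 are from genes that were lower than in control, and the last 2, Igtp and Ifitm3, from genes that were higher.
Irf7 (chr1:205800063-205800112, minus strand): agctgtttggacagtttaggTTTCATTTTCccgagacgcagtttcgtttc
Rsad2 (chr6:48788238-48788287, minus strand): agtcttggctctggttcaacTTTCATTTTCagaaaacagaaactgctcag
Bst2 (chr16:18255063-18255118, minus strand): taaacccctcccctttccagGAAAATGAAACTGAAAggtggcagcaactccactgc
Ifih1 (chr3:67683998-67684047, minus strand): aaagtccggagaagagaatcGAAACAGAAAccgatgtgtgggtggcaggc
Eif2ak2 (chr6:21941118-21941153, plus strand): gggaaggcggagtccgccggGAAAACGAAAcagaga
Ifi44l (chr2:243328612-243328693, plus strand): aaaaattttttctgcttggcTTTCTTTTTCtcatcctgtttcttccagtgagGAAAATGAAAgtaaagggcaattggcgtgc
Nmi (chr3:56848614-56848663, minus strand): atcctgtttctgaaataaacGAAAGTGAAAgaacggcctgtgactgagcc
Igtp (chr10:42874924-42874973, plus strand): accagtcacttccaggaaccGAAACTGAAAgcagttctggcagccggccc
Ifitm3 (chr1:205541773-205541822, minus strand): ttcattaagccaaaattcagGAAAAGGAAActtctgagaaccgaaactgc

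The same core stood in the windows of genes that moved in opposite directions and of genes that did not pass. The exact letters GAAACTGAAA occurred in the windows of 6 genes, Isg20, Oas1a, Igtp, Irgm, Dtx3l and Bst2, of which Bst2 was lower, Igtp higher, Oas1a lower after laser, and Isg20, Irgm and Dtx3l did not pass in either comparison. Their reverse complement, TTTCAGTTTC, occurred in the windows of Ifit3, Oasl2 and Ifi44, which by the probes used did not pass in either comparison. The 21 measured genes with ISRE letters had a median log2 difference of -0.24 for laser and -0.16 for bur, with 2 higher and 8 lower for laser and 2 higher and 7 lower for bur. The 11 measured genes with a window and no ISRE letters had medians of -0.54 and -0.42, with 0 higher and 5 lower for laser and 2 higher and 4 lower for bur. Over all genes 32.2% were higher and 17.6% lower for laser, and 32.7% and 18.3% for bur. No test was made between the counts of genes with and without ISRE letters.

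Against control, interferon-stimulated genes were split after both kinds of cut. After laser ablation 3 of the 40 were higher and 14 lower, or 7.5% and 35%, while of all 22937 genes 32.2% were higher and 17.6% lower (limma, adjusted p under 0.05). After bur drilling 5 were higher and 13 lower, or 12.5% and 32.5%, against a background of 32.7% higher and 18.3% lower. The genes that fell included the antiviral proteins Bst2, Rsad2 and Cmpk2, the sensors Ifih1, Zbp1 and Eif2ak2 and the factor Irf7, and those that rose in both comparisons were Oas2, Ifitm3 and, by the probe used, Igtp. Isg15, Mx1, Mx2 and Ifit3, which are often read as markers of interferon exposure, did not pass in either comparison. The comparisons share their control arrays, so their likeness is not independent evidence, and in bulk bone fewer cells of a type and less RNA per cell cannot be told apart.

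The median log2 difference of the 40 genes was -0.20 for laser and -0.17 for bur, where that of all genes was 0.21 and 0.23. Single genes ran from -1.98 to 1.52 for laser and from -2.37 to 1.51 for bur. The lower and upper quartiles of all genes were -0.37 and 0.79 for laser and -0.37 and 0.83 for bur. Laser and control arrays did not overlap for 3 genes on the higher and 15 on the lower side (31% and 17.7% of all genes), and bur and control arrays did not overlap for 6 and 12 (30.4% and 15.6%). The median of all genes depended on the scaling: it lay between 0.03 and 0.10 for laser and between -0.01 and 0.15 for bur under 5 other scalings or background corrections, with 55.3% to 58% and 51.5% to 56.8% of all calls on the higher side in place of 64.7% and 64.2%. Relative to that shift the median of the 40 genes was -0.41 and -0.40, and under the other settings -0.44 to -0.19 and -0.40 to -0.13, the smallest with normexp background correction.

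**Figure D1:**
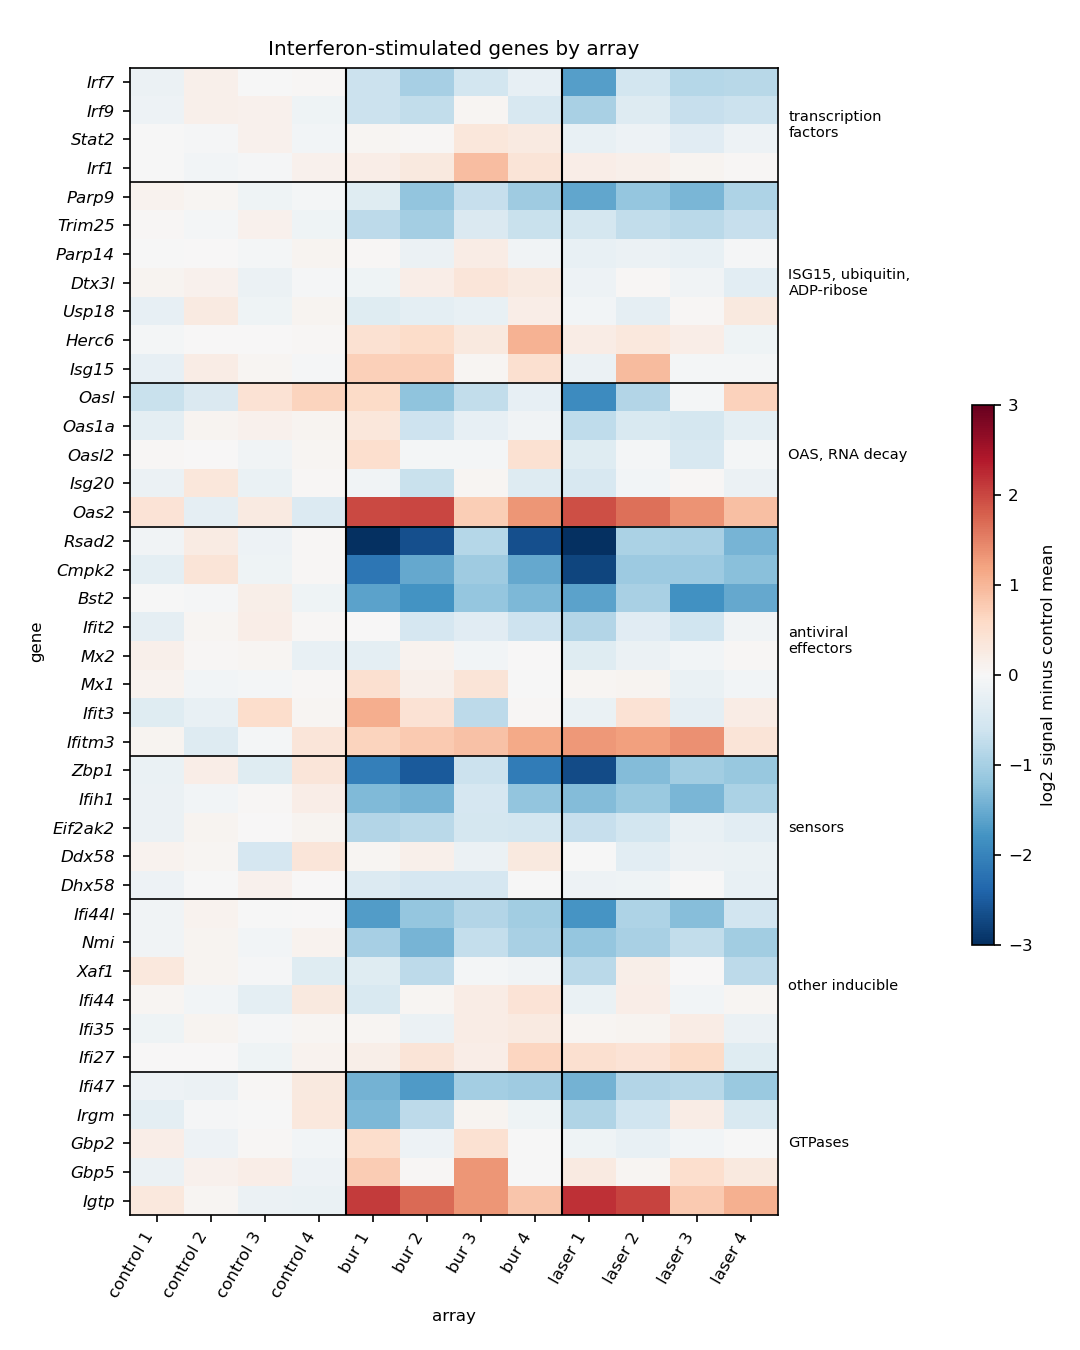
Log2 signal of the 40 measured interferon-stimulated genes (rows, grouped by role) on the 12 arrays (columns), each minus the mean of the 4 control arrays, in blue where lower and red where higher. Rsad2, Cmpk2, Bst2, Zbp1, Ifih1, Ifi44l, Nmi and Ifi47 are blue across the treated arrays, Oas2, Igtp and Ifitm3 red, and many rows, such as Mx2 and Parp14, stay pale; the colour scale stops at 3, which the lowest values of Rsad2 exceed.

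Marker genes of blood, marrow, bone and endothelial cells were read in the same fit. Their counts stand against shares over all genes of 32.2% higher and 17.6% lower for laser and 32.7% and 18.3% for bur. Of 10 measured monocyte and macrophage genes 6 fell after laser and 6 after bur, and their summed signal on the linear scale (1 is the 75th percentile) was 39.1 to 43 on laser, 35 to 59.7 on bur and 38.3 to 48.5 on control arrays. Of 10 T and NK cell genes 7 and 6 fell, with sums of 10.3 to 20.3, 11.5 to 29.1 and 32.3 to 35.7. B cell genes fell in 5 and 4 of 7 (7.66 to 28, 12.1 to 35.7 and 56.6 to 90.9), neutrophil genes in 6 and 5 of 10 (298 to 699, 308 to 780 and 622 to 764), and erythroid genes in 6 and 6 of 7 (32.6 to 284, 87.9 to 272 and 412 to 565). Of 10 osteocyte and osteoblast genes 9 rose and 1, Sost, fell after laser and 8 rose and 0 fell after bur (2900 to 3060, 2200 to 3310 and 1360 to 1750). Of the plasmacytoid dendritic cell list, the cell type known for making type I interferon, Siglech, Ly6d and Cd209a were not measured, and of the 6 that were, 2 rose and 1 fell after laser and 3 rose and 1 fell after bur (26.5 to 30, 26.9 to 37.9 and 23.9 to 29.2). The one that fell was Bst2, itself among the 40, and Runx2 among the risers is also an osteoblast gene. Endothelial genes rose in 1 and 2 of 6 (24 to 35.8, 27.1 to 37 and 20.8 to 26.1). Each sum is carried by the brightest probes of its list, such as S100a8 and S100a9 for neutrophils and Bglap and Col1a1 for bone, and does not weight its genes equally. The part of these cell types in the results was not tested.

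The counts by role rest on 4 to 8 genes each and are to be read against the shares over all genes, 32.2% higher and 17.6% lower for laser and 32.7% and 18.3% for bur. Among the 4 transcription factors, 0 rose and 2 fell after laser and 1 rose and 1 fell after bur. Irf7, the factor that amplifies the production of interferon-alpha, was read at 1.20, 2.31, 2.00 and 2.01 on the laser arrays, 2.21, 1.86, 2.29 and 2.61 on the bur arrays and 2.68, 3.00, 2.85 and 2.88 on the control arrays. All 8 treated arrays lay below all 4 controls, and laser array 1 was the lowest. The log2 difference from control was -0.97 (SE 0.23, adjusted p = 0.00579) for laser and -0.61 (SE 0.23, adjusted p = 0.0461) for bur. The bur call rested on the margin: it ended without any one of bur arrays 1, 2 or 3, any one of the 4 control arrays or laser array 3 or 4, with differences from -0.73 to -0.48 over the 12 fits that leave out 1 array, and with slide as a random block (adjusted p = 0.102), and with the bur arrays of slide 2 alone the difference was -0.40 (adjusted p = 0.0787).

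Irf9, the DNA-binding subunit of the complex with Stat2, lay at 2.62, 3.21, 2.92 and 2.96 after laser, 2.96, 2.87, 3.66 and 3.13 after bur and 3.44, 3.76, 3.72 and 3.48 in controls. Laser arrays were all below the controls, whereas bur array 3 reached into their range. The laser difference of -0.67 passed (SE 0.19, adjusted p = 0.0131), and the bur value of -0.44 (adjusted p = 0.0681) did not pass. Without bur array 3 the bur difference was -0.61 and passed (adjusted p = 0.00994), and it also passed under other scalings, at -0.64 with quantile normalization (adjusted p = 0.0123). A second Irf9 probe read -1.11 (adjusted p = 0.00142) for laser and -1.10 (adjusted p = 0.00151) for bur in the fit over all 30134 probes.

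Stat2, the partner of Irf9, was at 2.51, 2.57, 2.40 and 2.58 on laser arrays, 2.79, 2.76, 3.07 and 3.00 on bur arrays and 2.71, 2.70, 2.86 and 2.66 on control arrays. The laser arrays lay below every bur and every control array, and bur and control overlapped. The differences from control, -0.22 for laser (adjusted p = 0.119) and 0.17 for bur (adjusted p = 0.197), did not pass, though the laser difference did with quantile normalization (-0.40, adjusted p = 0.00803), with the percentile taken over probes above background on all arrays (-0.32, adjusted p = 0.0227) and in a limma refit of the values of the authors' deposited table (-0.47, adjusted p = 0.00266). Irf1, a factor induced early by interferon-gamma and by inflammatory cytokines, was read at 3.04, 3.00, 2.93 and 2.88 after laser, 3.06, 3.15, 3.78 and 3.23 after bur and 2.84, 2.77, 2.82 and 2.97 in controls. Bur array 3 was the highest, and all bur arrays lay above all controls and all laser arrays. Irf1 rose after bur by 0.46 (SE 0.15, adjusted p = 0.0264), while laser differed from control by 0.11 (adjusted p = 0.543). The bur call ended without control array 1 (0.45), control array 2 (0.43, adjusted p = 0.0639) or control array 3 (0.45, adjusted p = 0.0571), under other scalings (0.28 with quantile normalization, adjusted p = 0.128, and 0.28 with median centring, adjusted p = 0.261) and with slide as a random block (adjusted p = 0.0704). Without bur array 3 the rise was 0.30 and passed (adjusted p = 0.0387).

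Of the 7 genes of ISG15 conjugation, ubiquitin ligation and ADP-ribosylation, 0 rose and 2 fell after laser and 1 rose and 2 fell after bur. Isg15 encodes a ubiquitin-like protein that ligases attach to other proteins. Its values were 1.40, 2.51, 1.52 and 1.52 on laser arrays, 2.28, 2.28, 1.63 and 2.05 on bur arrays and 1.33, 1.80, 1.62 and 1.54 on control arrays. Laser array 2 and 3 of the 4 bur arrays were above all controls and the groups overlapped, and neither the laser difference of 0.16 (SE 0.25, adjusted p = 0.596) nor the bur difference of 0.49 (SE 0.25, adjusted p = 0.118) passed. Without laser array 2, which sets the spread of this gene in the joint fit, the bur difference of 0.49 passed (adjusted p = 0.0336).

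Parp9 encodes an ADP-ribosyltransferase that works as a pair with the ubiquitin ligase Dtx3l. Parp9 was at -1.89, -1.47, -1.69 and -1.24 after laser, -0.68, -1.50, -1.01 and -1.39 after bur and -0.21, -0.25, -0.45 and -0.37 in controls. Every treated array was below every control, and the fall was -1.25 (SE 0.19, adjusted p = 0.000648) for laser and -0.83 (SE 0.19, adjusted p = 0.00561) for bur. Dtx3l, whose probe lies 36311 bases from that of Parp9 on chromosome 11 of RGSCv3.4, differed from control by -0.13 (adjusted p = 0.437) for laser and 0.18 (adjusted p = 0.281) for bur. Trim25, the ubiquitin ligase that acts on RIG-I, was at 2.28, 2.06, 1.99 and 2.13 after laser, 2.02, 1.79, 2.37 and 2.15 after bur and 2.84, 2.76, 2.95 and 2.69 in controls. All treated arrays lay below the controls, with differences of -0.69 (SE 0.14, adjusted p = 0.0023) and -0.73 (SE 0.14, adjusted p = 0.00181). The calls rested on the probe used: another Trim25 probe read -0.07 and 0.03, and the mean of both probes did not pass (-0.38, adjusted p = 0.0587, and -0.35, adjusted p = 0.0755).

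Herc6, the ligase that attaches Isg15 in rodents, rose after bur by 0.59 (SE 0.16, adjusted p = 0.0121), with bur arrays at 1.16, 1.25, 1.01 and 1.75 above the controls at 0.64, 0.72, 0.72 and 0.75. The laser arrays, at 0.92, 1.02, 0.91 and 0.59, overlapped the controls and did not pass (0.15, adjusted p = 0.447). The bur call was lost with median centring (0.40, adjusted p = 0.104). Usp18, which removes Isg15 and damps the receptor, differed by -0.01 and -0.17, and Parp14, another ADP-ribosyltransferase, by -0.17 and 0.00, with no pass in either comparison.

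Oligoadenylate synthetases make the signal that switches on RNase L. Of these and Isg20, an exonuclease, 5 genes in all, 1 rose and 1 fell after laser and 1 rose and 0 fell after bur. Oas2 stood at -2.35, -2.63, -2.94 and -3.38 after laser, -2.32, -2.29, -3.56 and -2.96 after bur and -3.88, -4.57, -4.01 and -4.70 in controls. All treated arrays were above the controls, of which 2 of 4 were well above background. The rises of 1.46 (SE 0.32, adjusted p = 0.00407) and 1.51 (SE 0.32, adjusted p = 0.00348) shrank to 0.27 and 0.22 with normexp background correction and then did not pass (adjusted p = 0.216 and 0.302), and in the values of the authors' deposited table they were 0.65 and 0.63. Oas1a fell after laser by 0.51 (SE 0.19, adjusted p = 0.0461), from 0.27, 0.65, 0.68 and 0.64 in controls to -0.21, 0.10, 0.04 and 0.26, and was at 0.89, -0.05, 0.32 and 0.45 after bur (-0.16, adjusted p = 0.51).

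The laser call of Oas1a was on the margin, since it ended without any one of laser arrays 1, 2 or 3, control arrays 2, 3 or 4 or bur arrays 3 or 4 (-0.61 to -0.43 over all fits that leave out 1 array). A second Oas1a probe read -1.15 (adjusted p = 0.000856) for laser and -0.73 (adjusted p = 0.00846) for bur, so this gene was lower in both by that probe. Oasl2 differed by -0.24 and 0.21, Isg20 by -0.18 and -0.27, and Oasl, which was well above background on 1 laser, 1 bur and 2 control arrays, by -0.54 and -0.42, none of which passed. Oas1a also belongs to a family of near-identical copies in the rat, so its probes may share signal with other members of that family.

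Among 8 antiviral effectors, 1 rose and 3 fell after laser, and 1 rose and 3 fell after bur. Bst2, or tetherin, holds budding virions at the cell surface. It was at 0.88, 1.51, 0.68 and 0.95 after laser, 0.87, 0.70, 1.33 and 1.13 after bur and 2.48, 2.46, 2.65 and 2.35 in controls. The controls lay close together and every treated array was below them. The fall was 2.8-fold after laser (log2 -1.48, SE 0.19, adjusted p = 0.000272) and 2.79-fold after bur (log2 -1.48, SE 0.19, adjusted p = 0.000319), and laser and bur differed by 0.00 (95% interval -0.42 to 0.42).

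Rsad2, or viperin, turns CTP into a nucleotide that stops viral polymerases, and Cmpk2 is a nucleotide kinase whose gene is its neighbour, with a probe 38372 bases away on chromosome 6 of RGSCv3.4. Rsad2 was at 1.87, 5.50, 5.48 and 5.06 after laser, 3.12, 3.81, 5.60 and 3.81 after bur and 6.34, 6.69, 6.30 and 6.49 in controls. Cmpk2 was at -0.13, 1.53, 1.53 and 1.36 after laser, 0.46, 1.09, 1.57 and 1.08 after bur and 2.34, 3.01, 2.50 and 2.65 in controls. Both genes had every treated array below every control, their lowest value on laser array 1 and their highest treated value on bur array 3, tightly grouped controls for Rsad2 and a wide spread after surgery. Cmpk2 differed from control by -1.55 after laser (SE 0.37, adjusted p = 0.00561) and -1.57 after bur (SE 0.37, adjusted p = 0.0052).

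For Rsad2 the differences were -1.98 (SE 0.76, adjusted p = 0.0494) for laser and -2.37 (SE 0.76, adjusted p = 0.0236) for bur. Without laser array 1 the laser difference was -1.11 and did not pass (adjusted p = 0.0805). That call ended too without laser array 4, any one of the 4 control arrays or bur array 2 or 4, and the bur call without bur array 1, 2 or 4 or control array 2, the bur differences then running from -2.29 to -2.05. With slide as a random block neither passed (adjusted p = 0.101 and 0.0563). A second Rsad2 probe read -3.23 (SE 0.83, adjusted p = 0.00876) and -4.12 (SE 0.83, adjusted p = 0.00253).

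Ifitm3, a membrane protein that blocks the entry of viruses, was at 4.14, 4.06, 4.21 and 3.23 after laser, 3.51, 3.62, 3.72 and 3.97 after bur and 2.92, 2.45, 2.78 and 3.19 in controls. Laser array 4 and bur array 1 came closest to the controls without reaching them. It rose 2.11-fold after laser (log2 1.08, SE 0.23, adjusted p = 0.00346) and 1.83-fold after bur (log2 0.87, SE 0.23, adjusted p = 0.00995), and another Ifitm3 probe read 1.22 and 1.28. With the laser arrays of slide 2 alone the rise was 0.89 and did not pass (adjusted p = 0.063). Ifitm3 has close relatives on the same chromosome, so its probes may share signal with them: Ifitm2 read 0.56 (adjusted p = 0.0403) and 0.48 (adjusted p = 0.069), and Ifitm1 read -0.05 and -0.04.

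In this group Mx1, Mx2, Ifit2 and Ifit3 did not pass in either comparison. Mx1, a GTPase that traps viral nucleocapsids, was at 1.60, 1.62, 1.33 and 1.45 after laser, 2.00, 1.69, 1.91 and 1.52 after bur and 1.63, 1.45, 1.48 and 1.56 in controls. Laser and control arrays were interleaved, and 3 of the 4 bur arrays lay above all controls. The differences were -0.03 (SE 0.13, adjusted p = 0.863) and 0.25 (SE 0.13, adjusted p = 0.127). Mx2 differed by -0.15 and -0.07, Ifit2 by -0.48 (adjusted p = 0.0586) and -0.36 (adjusted p = 0.135) and Ifit3 by 0.05 and 0.18, the last with bur arrays from -0.65 to 1.23. Ifit1, below the filter, was well above background on laser array 1 at -4.69, bur array 1 at -4.22 and control array 3 at -4.16, and its other 9 values, from -6.45 to -4.54, were not well above background.

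**Figure D2:**
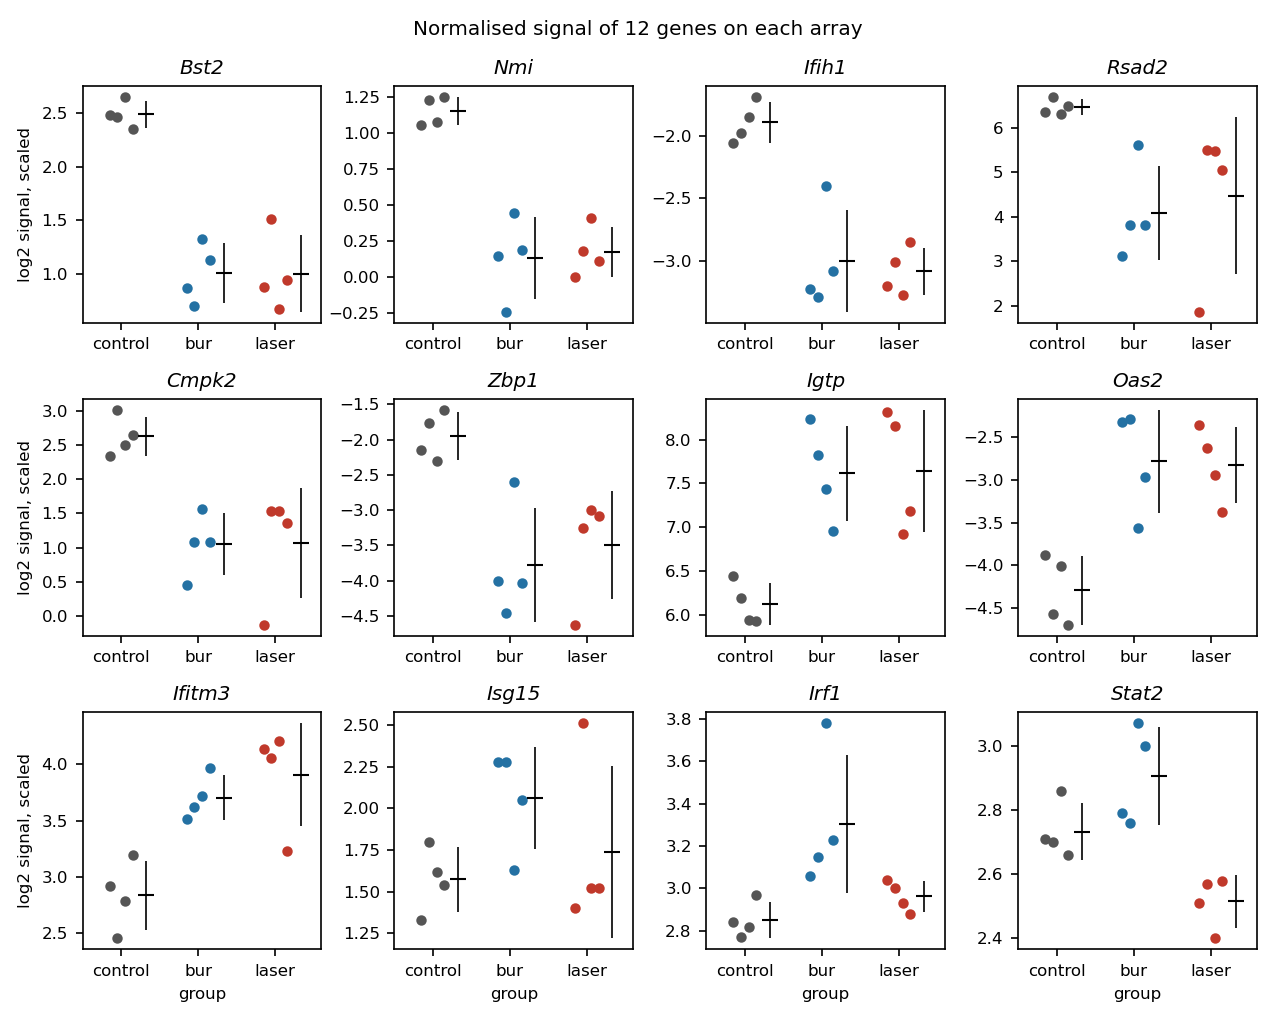
Log2 signal of 12 interferon-stimulated genes, minus the 75th percentile of each array, on the 4 control (grey), bur (blue) and laser (red) arrays, with the mean and SD beside the points and a separate vertical scale for each gene. Bst2, Nmi and Ifih1 are lower on all treated arrays, laser array 1 stands apart for Rsad2, Cmpk2 and Zbp1, and the laser values of Stat2 lie below those of both other groups.

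Nucleic acid sensors detect viral RNA or DNA and start the production of interferon. Of the 5 measured, 0 rose and 3 fell after laser, and 0 rose and 4 fell after bur. Ifih1, or MDA5, which binds long double-stranded RNA, was at -3.20, -3.01, -3.27 and -2.85 after laser, -3.22, -3.29, -2.40 and -3.08 after bur and -2.06, -1.98, -1.85 and -1.69 in controls. Bur array 3 came nearest to the controls and no array crossed. The falls were 2.28-fold (log2 -1.19, SE 0.19, adjusted p = 0.000859) and 2.15-fold (log2 -1.10, SE 0.19, adjusted p = 0.0013). With normexp background correction Ifih1 passed at -0.64 in each comparison, and in the values of the authors' deposited table the laser difference was -0.79.

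Zbp1 senses Z-form nucleic acid and can start necroptosis. Its values were -4.63, -3.25, -3.00 and -3.08 after laser, -4.00, -4.46, -2.60 and -4.04 after bur and -2.15, -1.76, -2.31 and -1.58 in controls. Laser array 1 was the lowest and bur array 3 the highest of the treated arrays, as for Rsad2. Zbp1 fell 2.9-fold after laser (log2 -1.54, SE 0.44, adjusted p = 0.014) and 3.54-fold after bur (log2 -1.82, SE 0.44, adjusted p = 0.00609). With the laser arrays of slide 2 alone the laser difference was -1.09 and did not pass (adjusted p = 0.0711). This gene is dim, and with normexp background correction its differences were -0.67 and -0.75 and passed, as did those from the authors' deposited table at -0.93 and -1.06.

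Eif2ak2, or PKR, halts translation when it binds double-stranded RNA. It was at -0.39, -0.26, 0.08 and -0.02 after laser, -0.58, -0.52, -0.23 and -0.26 after bur and 0.13, 0.38, 0.30 and 0.37 in controls. All treated arrays were below the controls, by -0.44 (SE 0.14, adjusted p = 0.0217) for laser and -0.69 (SE 0.14, adjusted p = 0.00245) for bur. The laser call ended without laser array 1 (-0.36, adjusted p = 0.067), laser array 2 (-0.41, adjusted p = 0.0559), control array 2 (-0.42, adjusted p = 0.0558) or control array 4 (-0.42, adjusted p = 0.0536) and with slide 2 alone (-0.27, adjusted p = 0.15), while a second probe read -0.72 (adjusted p = 0.00484) and -0.76 (adjusted p = 0.00363). Ddx58, or RIG-I, which recognises viral RNA ends, differed by -0.17 (adjusted p = 0.442) and 0.08 (adjusted p = 0.737). Dhx58, or LGP2, a relative that tunes both RNA sensors, fell after bur by 0.35 (adjusted p = 0.0397) with overlapping arrays, a call that ended under 8 of the 15 other settings and without any one of bur arrays 1 to 3, control arrays 2 to 4 or laser arrays 1 and 2 (-0.47 to -0.31 over the 12 fits), and it read -0.13 after laser.

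Of 6 other interferon-inducible genes, 0 rose and 2 fell after each cut. Nmi, a protein that binds STAT factors, was at 0.00, 0.18, 0.41 and 0.11 after laser, 0.15, -0.24, 0.45 and 0.19 after bur and 1.06, 1.23, 1.08 and 1.25 in controls. The groups were well separated, with falls of 1.98-fold (log2 -0.98, SE 0.15, adjusted p = 0.000651) and 2.03-fold (log2 -1.02, SE 0.15, adjusted p = 0.000575). Ifi44l, whose role is less well known, was at -4.22, -3.38, -3.73 and -3.03 after laser, -4.14, -3.62, -3.34 and -3.49 after bur and -2.55, -2.36, -2.47 and -2.44 in controls. All treated arrays were below the controls, by -1.14 (SE 0.24, adjusted p = 0.00338) and -1.19 (SE 0.24, adjusted p = 0.00267), with a second probe at -1.75 and -2.00. With normexp background correction the differences were -0.47 and -0.55 and passed, as they did at -0.56 and -0.68 in the values of the authors' deposited table. Ifi27, Ifi35 and Xaf1 did not pass, at 0.28 and 0.35, 0.05 and 0.10, and -0.35 and -0.33.

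The size of the Ifi44 difference depended on the probe. The probe with the higher mean read -0.01 (adjusted p = 0.965) and 0.06 (adjusted p = 0.813), and a second probe of the same gene read 1.22 (adjusted p = 0.000646) and 1.32 (adjusted p = 0.000466). The mean of both was 0.61 for laser (adjusted p = 0.00971) and 0.69 for bur (adjusted p = 0.0051). Under the name of the probe with the higher mean, the authors' deposited table gave 0.61 and 0.65.

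Interferon-inducible GTPases coat the vacuoles of intracellular parasites, and of 5 measured, 1 rose and 1 fell after each cut. Ifi47 was at -1.51, -0.96, -0.93 and -1.20 after laser, -1.52, -1.80, -1.11 and -1.15 after bur and -0.25, -0.26, -0.06 and 0.20 in controls. All treated arrays were below the controls, 2.08-fold after laser (log2 -1.06, SE 0.19, adjusted p = 0.00148) and 2.47-fold after bur (log2 -1.30, SE 0.19, adjusted p = 0.000548). Its probe lies 70911 bases from that of Irgm on chromosome 10 of RGSCv3.4, and Irgm differed by -0.43 (adjusted p = 0.274) and -0.54 (adjusted p = 0.175). Gbp2, a guanylate-binding protein, was at 1.67, 1.58, 1.70 and 1.79 after laser, 2.33, 1.63, 2.26 and 1.79 after bur and 1.98, 1.65, 1.82 and 1.72 in controls. The groups overlapped, and neither -0.11 (adjusted p = 0.601) nor 0.21 (adjusted p = 0.296) passed, nor did those of its neighbour Gbp5 (0.28 and 0.53).

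Igtp, another GTPase of this family, was at 8.32, 8.15, 6.92 and 7.18 after laser, 8.23, 7.83, 7.44 and 6.96 after bur and 6.44, 6.19, 5.94 and 5.93 in controls by the probe used. All treated arrays were above the controls, and those of slide 1, arrays 1 and 2 of each treatment, were above those of slide 2. The differences were 1.52 (SE 0.35, adjusted p = 0.00481) and 1.49 (SE 0.35, adjusted p = 0.00524), with 2.11 and 1.90 on slide 1 and 0.92 and 1.08 on slide 2, and 0.40 and 0.68 for the mean of its 3 probes. Its other probes read differently: one read -0.46 (adjusted p = 0.0107) and -0.13 (adjusted p = 0.383), and the other 0.16 (adjusted p = 0.357) and 0.69 (adjusted p = 0.00234). After bur 2 of the 3 probes rose, and after laser 1 rose and 1 fell. Under the name of the probe used here, the authors' deposited table gives 0.37 for laser and 0.52 for bur. Both passed in the authors' own test (adjusted p = 0.0263 and 0.00607). A limma refit of the deposited values gave an adjusted p of 0.0718 for laser. The deposited differences lay nearer to the mean of the 3 probes than to this probe in the scanner files. How the authors combined probes is not stated in the sources used here.

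**Figure D3:**
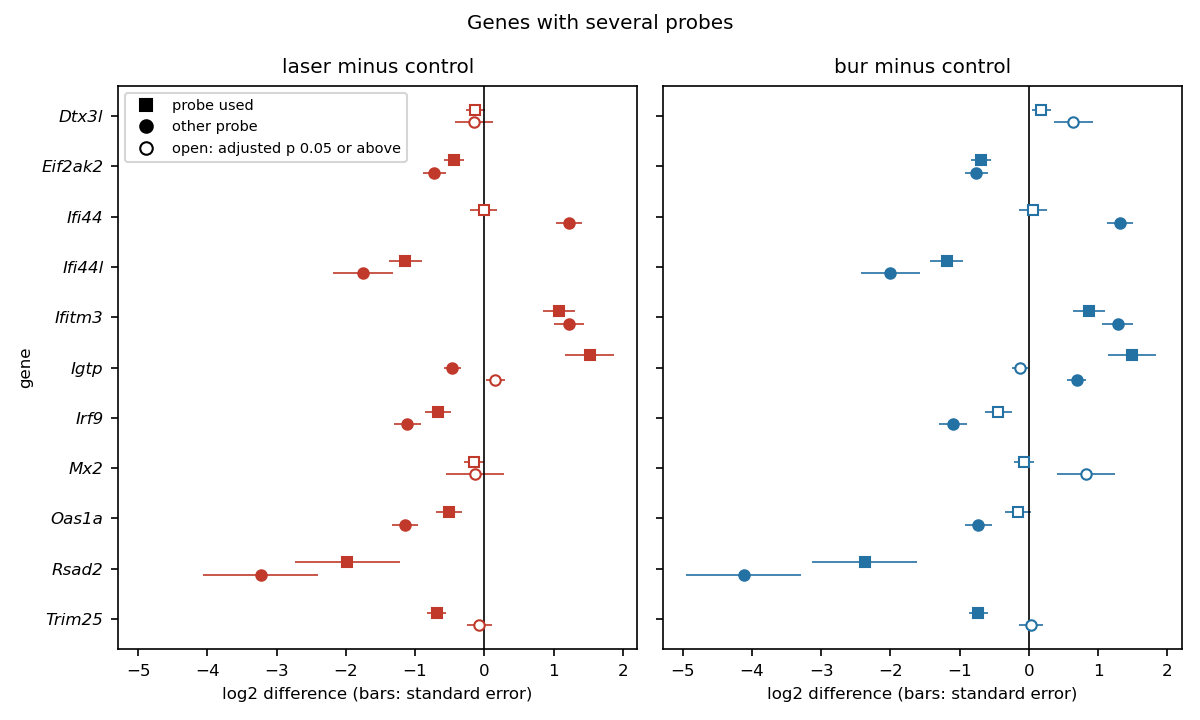
Log2 difference from control, with standard errors, of every probe that passed the filter for the 11 interferon-stimulated genes with several such probes; squares mark the probe used, circles the others, and filled symbols an adjusted p under 0.05 in the fit over 30134 probes. Probes of Rsad2, Ifi44l, Ifitm3, Eif2ak2 and Irf9 lie on the same side of 0, whereas those of Igtp, Ifi44 and Trim25 do not share a result.

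Side by side, the differences of laser and bur from control were close for most of the genes that changed, and both are measured against the same 4 control arrays. For Bst2, Nmi, Cmpk2, Ifi44l, Trim25, Oas2 and Igtp the pair of values were nearly equal. The genes that passed in one comparison did not pass the test of laser against bur, so no difference between the cuts is shown by them.

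**Figure D4:**
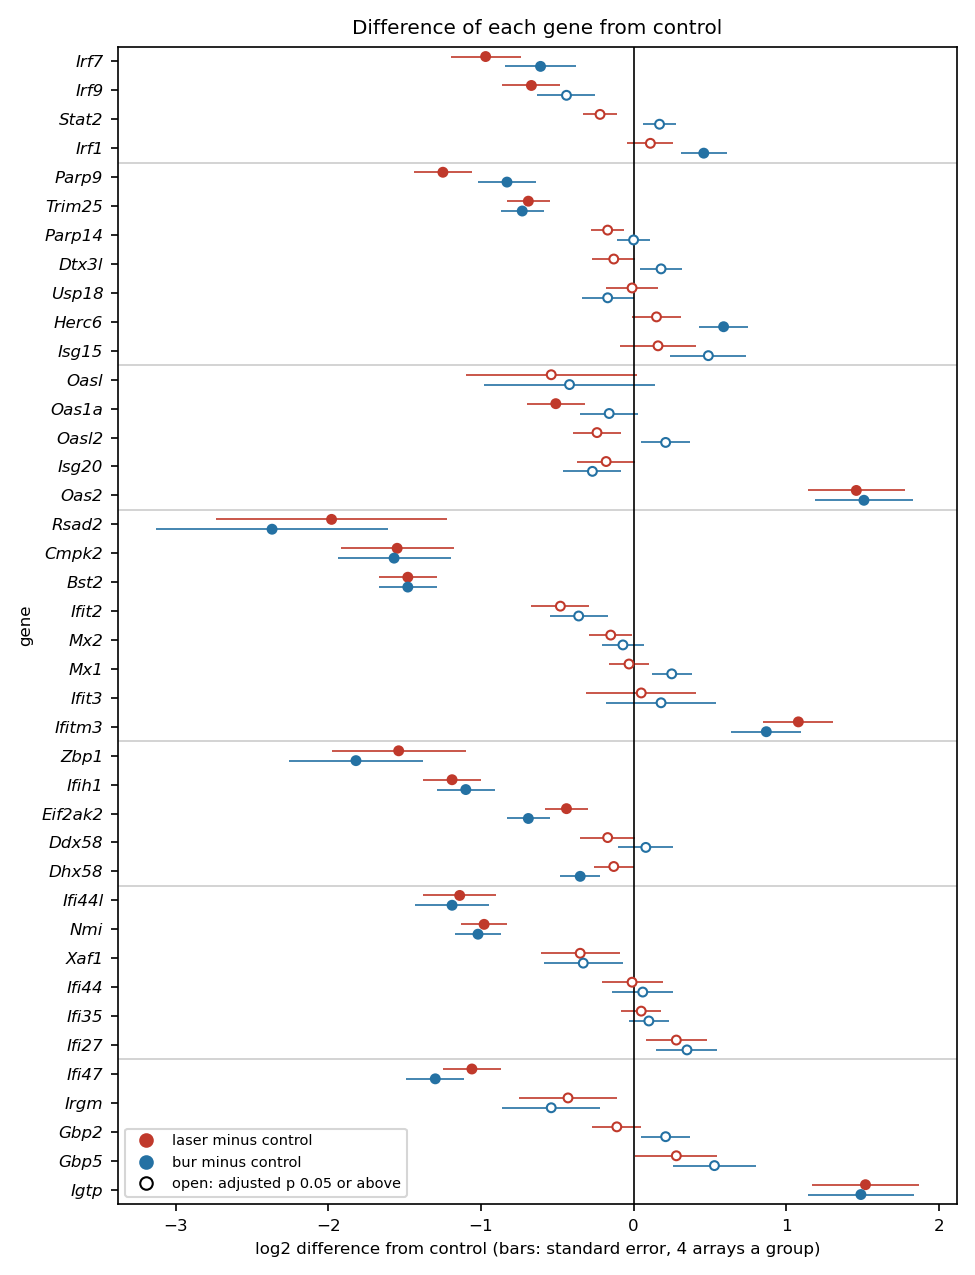
Log2 difference from control with its standard error for each of the 40 genes, laser in red and bur in blue, grouped by role, with filled points for an adjusted p under 0.05. The values run from -2.37 for Rsad2 to 1.52 for Igtp, and the red point lies left of the blue one for Stat2, Irf1, Oasl2, Herc6, Parp9 and Dtx3l.

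Laser against bur asks whether the kind of cut matters, and here 0 of the 40 genes were higher and 0 lower in limma's test, with a smallest adjusted p of 0.546. Of all 22937 genes 1, the heat shock gene Hspa1a, was higher after laser (0.00436%; log2 3.87, adjusted p = 0.0175) and 0 were lower (0%). At an unadjusted p under 0.05, 0 interferon-stimulated genes were higher and 6 lower after laser, where over all genes 931 were higher and 560 lower, and of 36 probes of these genes in the authors' deposited comparison table none passed. The 40 values lay between -0.45 and 0.39 with a median of -0.08, that of all genes being 0.01, and 26 were below 0 and 14 above. With median centring the median of the 40 was 0.00, and under the other settings it ran down to -0.21.

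The 6 genes with an unadjusted p under 0.05 were Stat2 at -0.39 (95% interval -0.63 to -0.15, adjusted p = 0.546), Oasl2 at -0.45 (-0.82 to -0.09), Herc6 at -0.43 (-0.79 to -0.08), Irf1 at -0.34 (-0.67 to -0.01), Dtx3l at -0.31 (-0.61 to -0.01) and Parp9 at -0.43 (-0.86 to 0.00). Stat2 and Irf1 were the genes whose laser and bur arrays did not overlap, both lower after laser, and over all genes 1.51% did so on that side and 2.06% on the other. For 37 of the 40 genes the 95% interval stayed within 1 log2 unit of 0 on both sides. The exceptions were Rsad2 (-1.28 to 2.06), Oasl (-1.34 to 1.10) and Zbp1 (-0.68 to 1.25). With the treated arrays of slide 1 the median of the 40 was -0.04 and with those of slide 2 it was -0.21, and 0 genes passed on either slide.

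**Figure D5:**
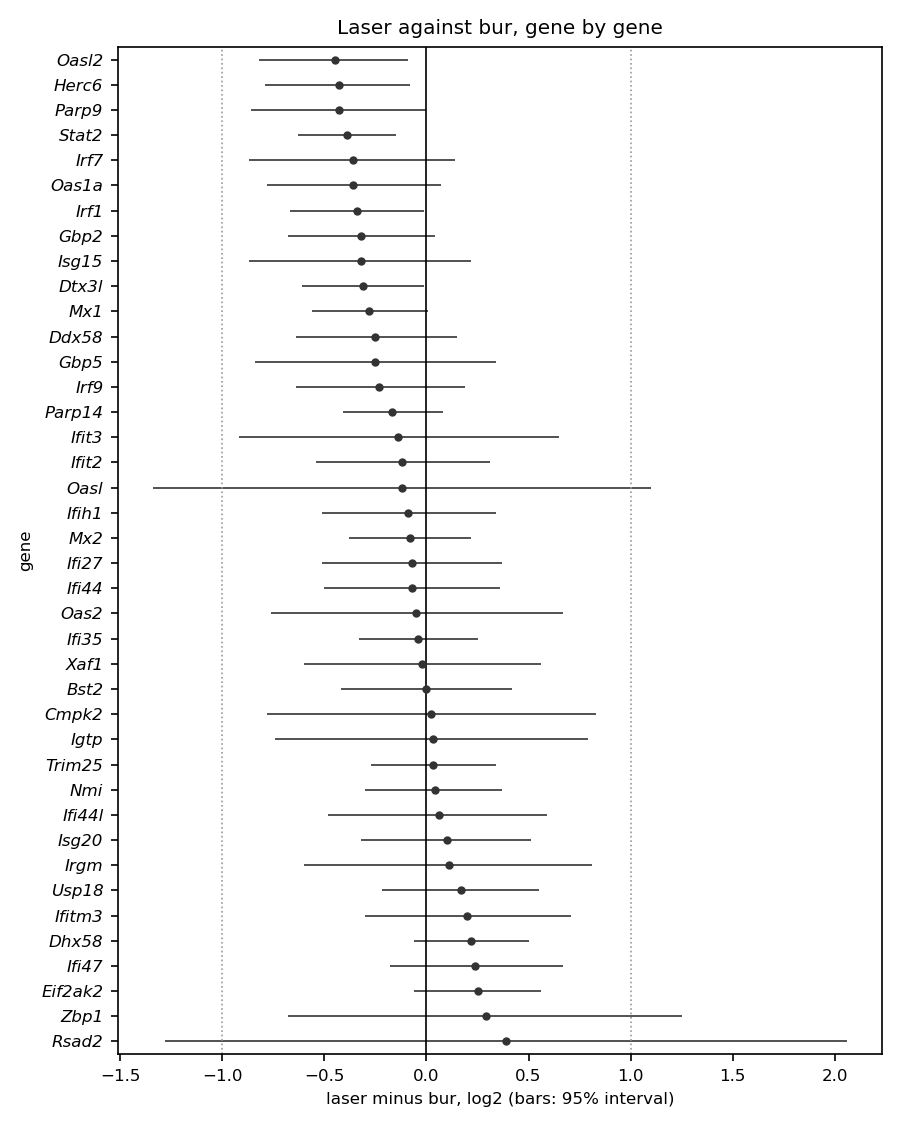
Laser minus bur, log2, with 95% intervals for each of the 40 genes, sorted by value; dotted lines mark 1 log2 unit. Points run from -0.45 (Oasl2) to 0.39 (Rsad2), and the widest interval is that of Rsad2.

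Upstream of the target genes, 4 of 11 listed interferons were measured, and Ifnb1 and Ifng were among the 7 that were not. Ifna4 and Ifnk, well above background on all 12 arrays, rose after both cuts. Of the other listed interferon-alpha genes, Ifna2, Ifna5 and Ifna11 were not measured. Whether the Ifna4 probe shares signal with genes of that family was not tested. Ifna4 was at -0.05 after laser, -0.02 after bur and -2.18 in controls (means), a difference of 2.13 (adjusted p = 0.00119) and 2.17 (adjusted p = 0.00114), and Ifnk, an interferon of epithelia, differed by 0.98 and 0.81. Ifna1 and Ifnl3 were well above background on 0 control arrays and entered the measured set through the treated arrays alone, so the filter favoured a rise and their number says nothing. For Ifna1 a bound can be given: at least 1.64-fold higher after laser and at least 1.72-fold higher after bur. It was set against the dimmest signal that counted as above background on each control array, or the probe's own where that was brighter. The bounds were not tested. Over all 22937 genes the dimmest of 5 equal groups by mean signal had a median difference of 0.56 for laser and 0.69 for bur, where the middle group had 0.01 and 0.02, so dim probes as a whole read higher on the treated arrays.

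Receptors were mixed: 3 of 6 rose and 1 fell after laser, and 3 rose and 2 fell after bur. Over all genes 32.2% were higher and 17.6% lower for laser, and 32.7% and 18.3% for bur. With so few genes in a list, such counts are not read as a result about the list. Ifnar1, a chain of the type I receptor, fell by 1.01 (SE 0.18, adjusted p = 0.00127) and by 0.69 (SE 0.18, adjusted p = 0.00864), and Ifngr2, a chain of the interferon-gamma receptor, rose by 1.09 (SE 0.16, adjusted p = 0.00046) and 1.17 (SE 0.16, adjusted p = 0.000377). Ifnlr1, of the type III receptor, rose by 0.97 and 0.96, and Il10rb, its partner chain, by 0.41 and 0.56. Ifngr1, the other chain of the interferon-gamma receptor, read -0.51 after laser (adjusted p = 0.0505) and fell after bur by 0.59 (adjusted p = 0.0285). Of 5 kinases and signal transducers, Stat3, better known for interleukin-6 signalling, rose by 0.93 (adjusted p = 0.00263) and 0.90 (adjusted p = 0.00317) and Tyk2 fell by 0.57 (adjusted p = 0.0296) and 0.69 (adjusted p = 0.013). Jak1 and Jak2 did not pass.

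Among other interferon regulatory factors Irf8, a factor of myeloid and dendritic cells, fell by 1.24 (SE 0.20, adjusted p = 0.000885) and 1.33 (SE 0.20, adjusted p = 0.000662). Irf4, a factor of lymphocytes, read -1.12 (adjusted p = 0.081) and -0.93 (adjusted p = 0.138). Among 12 upstream sensors and adaptors 2 rose and 5 fell after laser, and 3 rose and 4 fell after bur. The shares over all genes were 32.2% higher and 17.6% lower for laser, and 32.7% and 18.3% for bur. Tbk1, the kinase that activates Irf3, fell by 1.11 (SE 0.18, adjusted p = 0.000752) and 1.62 (SE 0.18, adjusted p = 0.000191), and Tlr7, a sensor of single-stranded RNA, fell by 1.32 (adjusted p = 0.00138) and 1.67 (adjusted p = 0.000447). Tlr8 was well above background on 4 control and 0 laser arrays and was at least 3.54-fold lower after laser, a bound that was not tested. It fell by 1.45 after bur (adjusted p = 0.00116). Tlr3, which senses double-stranded RNA in endosomes, went the other way, at 1.04 (adjusted p = 0.00132) and 0.81 (adjusted p = 0.0046).

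Of 9 negative regulators 1 rose and 3 fell after laser and 2 rose and 3 fell after bur. These counts and those of the chemokines stand against shares over all genes of 32.2% higher and 17.6% lower for laser. For bur the shares were 32.7% and 18.3%. Socs3 rose by 1.06 (adjusted p = 0.00334) and 0.99 (adjusted p = 0.00499), and the falls were those of Pias1 (-0.89 and -1.09), Ptpn6 (-1.17 and -1.07) and Usp15 (-1.18 and -1.54). Of 3 measured chemokines that interferon-gamma induces, 0 rose and 1 fell after laser and 1 rose and 0 fell after bur. Cxcl10 read 0.07 after laser (adjusted p = 0.908) and 1.44 after bur (SE 0.49, adjusted p = 0.0303), with bur arrays from -2.49 to 0.35 that overlapped the controls at -3.01 to -2.42. Cxcl9 fell after laser by 0.73 (adjusted p = 0.0475) and read 0.59 after bur (adjusted p = 0.0946), and Ccl5 read -0.45 and -0.41 without passing. Cxcl9 was well above background on only 2 of the 4 laser arrays, so its laser level is limited by background. Laser arrays of Cxcl9, at -5.29 to -4.30, lay below all bur arrays at -3.84 to -2.62, a difference of -1.33 (SE 0.28, adjusted p = 0.408), and neither it nor Cxcl10 (-1.36, adjusted p = 0.64) passed in laser against bur.

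A further 33 measured interferon-inducible genes gave 5 higher and 10 lower after laser and 4 higher and 10 lower after bur, where the shares over all genes were 32.2% and 17.6%, and 32.7% and 18.3%. Tap1, the peptide transporter of antigen presentation, fell by 2.19 (SE 0.28, adjusted p = 0.000252) and 2.12 (SE 0.28, adjusted p = 0.000337), and Slfn3, of the schlafen family, by 1.82 and 1.92. Gbp1 rose by 2.35 (SE 0.38, adjusted p = 0.000825) and 2.63 (SE 0.38, adjusted p = 0.000496), in contrast to Gbp2, and Tor3a rose by 1.13 and 0.88. Over all 78 measured genes of the pathway lists, 16 were higher and 23 lower after laser, 18 higher and 22 lower after bur, to be read against the same shares, and 0 passed in laser against bur. These totals include Ifna1, Ifnl3, Tlr8 and Oas1f, each with 0 arrays above background in at least 1 group.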

How the data were processed

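RNA of 12 samples, grouped by title, was read on one-colour arrays, from 200 ng of RNA each per the labels' protocols. The scanner files deposited by the authors hold the intensity of each spot, background already subtracted, from Feature Extraction version 11.0.1.1 of Agilent per the file headers. Other deposited tables of the authors give quantile-normalized log2 values and, per probe, a log2 fold change with a p-value. Neither their model nor how they combined probes is stated in the sources used here.

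Processed signals were log2 transformed after leaving out control and outlier spots, averaged per probe, and reduced by the 75th percentile of their array. Probes well above background on at least 4 arrays were kept (30134), and of these 1 per gene name, the brightest. limma 3.58.1 (R 4.3.3) fitted all 12 arrays together, with two-sided tests, Benjamini-Hochberg adjustment over 22937 genes and a threshold of 0.05; SEs are moderated. This scaling hides any change shared by most genes. The code was tested on simulated data. Probe coordinates are those of the array design (RGSCv3.4). The genes and lists were chosen with earlier results of these data known. Values on every array are given for genes that passed in both comparisons with control, and for Isg15, Mx1, Irf7, Irf1, Stat2, Irf9, Gbp2 and Igtp in any case; Herc6 and Oas1a were added after their values were seen. From each pathway list up to 3 genes with the smallest adjusted p in each comparison were named, and Jak2, Ifitm1, Ifitm2 and Ifngr1 were added after their values were seen; some genes of these lists are not reported here. Alternatives covered scaling, background correction, filters, probe choice, intensity trend, array weights, replicate and slide blocks, and leaving out each array.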

Additional observations from a re-analysis of the deposited data

Results flagged for a closer look

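Among 123 groups of 4 arrays, 6 held an array far from the other 3 by Dixon's ratio at the 95% level, which chance gives in about 1 in 20 groups. Laser array 1 was the array in 3 of them: Rsad2 at 1.87 against 5.06 to 5.50, its neighbour Cmpk2 at -0.13 against 1.36 to 1.53 and Zbp1 at -4.63 against -3.25 to -3.00. That array also had the lowest median of the 40 genes, 0.26, where the other 11 ran from 0.54 to 1.03. Laser array 2 was high for Isg15, at 2.51 against 1.40 to 1.52. Laser array 4 was low for Ifitm3, at 3.23 against 4.06 to 4.21. Control array 1 was low for Oas1a, at 0.27 against 0.64 to 0.68.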

How the results depend on the processing

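Of the genes that passed, 9 of 17 for laser and 11 of 18 for bur passed under all 15 other settings and in all 12 fits that leave out 1 array. For laser these were Bst2, Cmpk2, Ifi44l, Ifi47, Ifih1, Irf7, Irf9, Nmi and Parp9, and for bur Bst2, Cmpk2, Eif2ak2, Ifi44l, Ifi47, Ifih1, Ifitm3, Igtp, Nmi, Parp9 and Zbp1. Over the other settings, 2 to 4 genes were higher and 10 to 17 lower for laser, and 3 to 6 higher and 10 to 14 lower for bur, the 3 with median centring. Leaving out 1 array gave 3 to 4 higher and 11 to 15 lower for laser and 4 to 6 higher and 10 to 12 lower for bur. With treated arrays of slide 1 alone 4 were higher and 14 lower in each comparison, with slide 2 alone 2 and 10 for laser and 5 and 11 for bur, and with slide as a random block 3 and 12, and 4 and 10. The laser value of Ifi44, -0.01 and not called, became 0.61 and passed with the mean of its probes, and 0.61 and passed in a refit of the authors' deposited values. In laser against bur 0 of the 40 genes passed under any setting or without any 1 array, while the count over all genes, 1 as reported, was 5 with normexp, 10 with slide as a block, 2 with an intensity trend, 0 with the mean of probes, with only the compared groups or with either slide alone, and 0 to 1 without 1 array. Samples share replicate numbers across groups, and were not taken as pairs, since not every pair of same-numbered arrays correlated above 0.1: their deviations correlated at 0.09 to 0.39, 0.09 to 0.26 and 0.04 to 0.58 in the 3 comparisons, all above 0, and in each comparison 3 of 4 arrays correlated best with their own number, a hint from the data and not the design. With the replicate number as a block 3 genes were higher and 13 lower for laser, 5 and 13 for bur, and 0 for laser against bur; over all genes 12521 passed for laser in place of 11420 and 12885 for bur in place of 11702. The number of arrays limits precision, and dim probes such as Oasl and Oas2 are limited by background.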
